A study of Mus musculus with 2 samples.

Results

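Among splenic cells enriched for natural killer (NK) cells, a small set of barcodes carried NK receptor RNA together with Il7r and genes of group 1 innate lymphoid cells (ILC1). These ILC1-like barcodes were chosen by gene content alone. A member had at least 1 UMI (unique molecular identifier, a counted RNA molecule) of Klrb1c or Ncr1, at least 1 of Il7r, and at least 1 of Tmem176a, Tmem176b, Cxcr6 or Itga1, called the 4 ILC1 genes below. It had no UMI of Cd3d, Cd3g, Trac, Cd79a or H2-Aa, which are T cell, B cell and antigen-presentation genes. The rule found 318 members among 11692 barcodes that carried exactly 1 lipid tag.

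The cells came from spleens of wild-type mice with no treatment named in the labels, and the mice's age is not given in the sources used here. T, dendritic, B, granulocytic, macrophage and erythroid cells had been removed with antibodies on magnetic columns, and droplet libraries of 3′ RNA ends were made. Cells of different mice were combined with lipid tags, and 3 tags were read in the matrix. The labels list 2 samples of 1 group. The sample with a matrix was analysed, and the other was not analysed here. The labels do not say which mouse a tag stands for, so the p-values below set each difference against the spread between the 3 tags, which may be technical. The main comparison class, called NK barcodes, was 7716 single-tag barcodes with Ncr1 and Klre1 UMIs and none of Il7r. All classes share the wild-type genotype, the tissue, the library and the tags.

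ILC1 and NK cells are both innate lymphocytes that produce interferon gamma and depend on the transcription factor T-bet (Tbx21). NK cells also express Eomes, circulate, and kill target cells with granzymes and perforin, whereas ILC1 are mostly described as tissue cells with little or no Eomes, with the IL-7 receptor and with strong cytokine production. In mice, NK cells carry receptors of the Ly49 family (Klra genes), and their maturation runs from Cd27-positive to Itgam-positive cells.

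Tag 1 held 78 members, tag 2 held 101 and tag 3 held 139. They were 2.17%, 2.40% and 3.58% of each tag's barcodes, a mean of 2.72% ± 0.756 (SD, n = 3 tags). Pooled over tags the share was 2.72%, with an exact 95% binomial interval of 2.43% to 3.03% that covers counting error only. The share was highest in tag 3. Members held a median of 5219.5 UMIs and NK barcodes 4067, so the members were the deeper class. The summed libraries held 1886446 UMIs for members and 38239387 for NK barcodes.

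The genes of the rule describe how the members were built and carry no test. Ncr1, the receptor NKp46, was detected in 309 of the 318 members and Klrb1c, the NK1.1 antigen, in 293. Klre1, an NK receptor that the rule did not ask of members, was detected in 207. Among the 4 ILC1 genes, Tmem176b was detected in 204 members, Tmem176a in 170, Itga1 (the integrin CD49a) in 119 and Cxcr6, a chemokine receptor, in 91. Tmem176a and Tmem176b overlap on opposite strands, and whether counting used strand is not given in the sources used here. Of the 4 genes, exactly 1 was found in 135 members, 2 in 113 and 3 or 4 in 70. Among barcodes with an NK receptor gene and no exclusion gene, 45.2% of 704 with Il7r held at least 1 of the 4 genes, against 6.39% of 7086 without Il7r.

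At the edge of the rule, 60 members held a single Il7r UMI and 258 held more. Just outside it were 453 barcodes with the same genes but no Il7r UMI. Rora averaged 194 ± 16.0 CPM (a gene's UMIs per 1e+06 gene UMIs; SD, n = 3 tags) in members with 1 Il7r UMI, 379 ± 108 in members with more, and 118 ± 9.51 just outside. The corresponding levels of Zeb2, a transcription factor of mature NK cells, were 471 ± 41.1, 226 ± 22.2 and 838 ± 37.3 CPM. Members with 1 Il7r UMI therefore lay between the other members and the barcodes left out, in both genes.

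The name ILC1-like was set beside genes outside the rule. Of the marker set Il7r, Rora, Tmem176b, Cxcr6 and Xcl1, only Rora and Xcl1 were not used to choose members. That set was drawn up with earlier results of these data known, so Rora and Xcl1 are no independent evidence for the name. Rora encodes a nuclear receptor needed by several innate lymphoid cells. Its level in tags 1, 2 and 3 was 419, 347 and 261 CPM in members, and 68.7, 65.5 and 64.1 CPM in NK barcodes. Every tag of members lay above every tag of NK barcodes. The mean was 342 ± 79.4 against 66.1 ± 2.35 CPM, a log2 fold of 2.34 ± 0.11 (SE; edgeR adjusted p = 5.43e-12).

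Xcl1 encodes a chemokine that attracts cross-presenting dendritic cells. It stood at 1749, 2119 and 1659 CPM in members and at 391, 376 and 337 CPM in NK barcodes, with no overlap. Members were higher by a log2 fold of 2.31 ± 0.08 (SE; edgeR adjusted p = 2.79e-14). After each barcode was thinned to 2500 UMIs, which left out 14 members and 738 NK barcodes, Xcl1 was detected in 78.3% of members (exact 95% interval 73.2% to 82.8%) and 32.2% of NK barcodes. The unthinned shares were 84.6% and 41.1%. In 457 B cell barcodes (Cd79a and Ms4a1 with a UMI, Ncr1 and Klre1 at 0), which should lack it, the thinned share was 1.70% at a median depth of 3788 UMIs. For Rora the thinned shares were 45.1% of members, 12.8% of NK barcodes and 0.728% of B cell barcodes, and the unthinned ones 61.3% of members and 19.8% of NK barcodes.

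The Xcl1 gene lies at chr1:164931644-164935527 on the minus strand of GRCm38. The 250 bases before its RefSeq start (GRCm38.p6, chr1:164935523-164935772, minus strand) are shown because T-box and Runx factors are regulators of this lineage. Capitals mark matches to the Runx letters TGTGGT and the T-box letters TCACACC, searched on both strands.
Xcl1: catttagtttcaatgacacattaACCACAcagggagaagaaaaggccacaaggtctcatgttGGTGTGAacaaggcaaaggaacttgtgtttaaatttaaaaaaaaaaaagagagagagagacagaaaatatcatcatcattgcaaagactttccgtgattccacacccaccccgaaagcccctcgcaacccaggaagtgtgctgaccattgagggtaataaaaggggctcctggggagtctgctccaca
A Runx match stood at -227 and a T-box match at -188, counted from the start site and both as the reverse complement of the searched letters. The AP-1 letters TGACTCA and the nuclear receptor half-site letters AGGTCA were searched as well and had no match. Of 32851 RefSeq promoters of this length, 14.0% held the Runx letters and 3.33% the T-box letters. A match describes the letters and shows no binding.

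The pair of T-box factors behaved differently. Eomes stood at 103, 42.0 and 50.9 CPM in members and at 358, 327 and 300 CPM in NK barcodes, so each member tag was lower than each NK tag. The fitted log2 fold was -2.41 ± 0.15 (SE; edgeR adjusted p = 8.56e-10). Tbx21 stood at 279, 255 and 245 CPM in members and at 201, 227 and 215 CPM in NK barcodes. Its log2 fold of 0.26 ± 0.10 (SE) did not pass the threshold (edgeR adjusted p = 0.108). Thinned to equal depth, 11.5% of members and 52.8% of NK barcodes held an Eomes UMI, whereas 43.1% and 40.5% held a Tbx21 UMI. Unthinned, the Eomes shares were 19.5% and 68.8%, and the Tbx21 shares 64.2% and 56.4%.

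**Figure D1:**
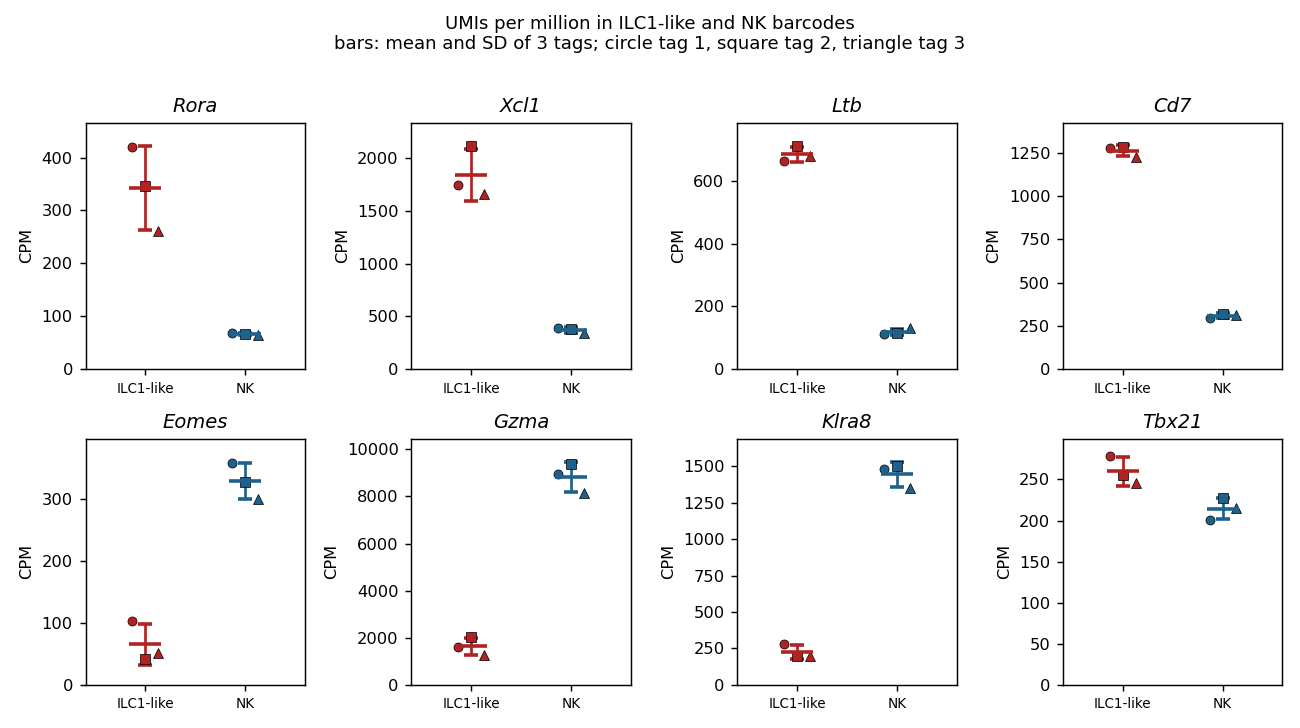
CPM (linear axis from 0) of 8 genes in ILC1-like and NK barcodes, with 1 point per tag and the mean and SD of 3 tags. Rora, Xcl1, Ltb and Cd7 are higher in every ILC1-like tag, Eomes, Gzma and Klra8 are lower in every one, and Tbx21, at 260 against 214 CPM, did not pass the test.

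Across 11766 tested genes, 1231 (10.5%) differed between members and NK barcodes at an edgeR adjusted p under 0.05. They were 630 higher in members (5.35%) and 601 lower (5.11%), and the median log2 fold over all tested genes was -0.02. DESeq2 called 451 higher and 305 lower. Without tag 3 edgeR called 402 and 363, and with NK barcodes matched in depth to the members it called 367 and 338 of 7205 tested genes.

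Genes reported for ILC1 rose together in members. Of 14 listed genes outside the rule, 11 rose, 1 fell and 2 did not pass the test, against a background of 5.35% higher and 5.11% lower. The list's median log2 fold was 2.33, beside -0.02 over all genes. Over 17 alternative settings, 10 to 12 of the genes rose and 1 fell. The list was drawn up with earlier results of these data known, so it is no independent evidence of its direction.

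Surface and cytokine genes made up much of this list. Ltb, which encodes lymphotoxin beta of lymphoid tissue organisation, stood at 665, 713 and 679 CPM in members and at 113, 114 and 130 CPM in NK barcodes (log2 fold 2.52, edgeR adjusted p = 2.79e-14). Cd7, an immunoglobulin-family surface protein, averaged 1264 ± 32.1 against 308 ± 13.3 CPM (SD, n = 3 tags; log2 fold 2.03). Cd160, a receptor of innate lymphocytes, averaged 454 ± 45.1 against 106 ± 8.45 CPM. Groups did not overlap for any of these genes. Tnfsf10 encodes the death ligand TRAIL, a marker of ILC1 in several tissues, and averaged 61.3 ± 6.18 against 9.77 ± 1.21 CPM (log2 fold 2.63). Cxcr3, a receptor for interferon-induced chemokines, rose from 32.2 ± 3.38 to 114 ± 1.76 CPM.

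Several genes of the list stood far lower in NK barcodes than in ILC1-like members. Il2ra, the high-affinity IL-2 receptor chain, averaged 33.4 ± 4.68 CPM in members and 1.79 ± 0.443 in NK barcodes (log2 fold 4.22). Inpp4b, a phosphoinositide phosphatase, averaged 381 ± 24.0 against 26.2 ± 8.30 CPM, and B cell barcodes also held it, at 631 CPM. Cd200r1, an inhibitory receptor with close paralogs beside it, averaged 67.6 ± 11.8 against 3.53 ± 1.20 CPM. Zfp683, which encodes the residency factor Hobit, rested on 11 UMIs in members and 6 in NK barcodes. The fit gave a log2 fold of 5.06 ± 1.01 (SE; edgeR adjusted p = 0.0017), and it was detected in 11 of 318 members. Ctla2a, a cysteine protease inhibitor, fell from 643 ± 58.1 to 270 ± 52.9 CPM. Il21r and Cd69 had log2 folds of 0.28 and 0.43 and did not pass the test.

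The conventional NK list moved the other way. Of its 20 genes, 16 fell, 1 rose and 3 did not pass the test, with a median log2 fold of -1.71. The background was 5.11% lower and 5.35% higher. Over the 17 alternative settings, 16 to 18 of the listed genes fell and 1 rose. This list too was drawn up with earlier results of these data known, so it is no independent evidence of its direction. The NK rule also required a Klre1 UMI, which the member rule did not, and the part of this in the falls was not tested. The 6 Ly49 receptor genes tested in the list fell by 2.12 to 2.72 on the log2 scale. Klra8, the activating receptor Ly49H, stood at 283, 198 and 201 CPM in members against 1479, 1506 and 1350 CPM in NK barcodes (edgeR adjusted p = 9.21e-14). The NK values were several times higher in each tag, and the thinned share of barcodes with a UMI was 17.1% against 69.8% (25.2% and 74.6% unthinned). B cell barcodes had a thinned Klra8 share of 9.47% and an unthinned one of 16.2%, and 38.6 CPM, below every member tag. Klra genes are close paralogs whose reads can be split between them, and values of single members are uncertain for that reason.

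Maturation genes fell with the Ly49 receptors. Zeb2 averaged 270 ± 23.1 CPM in members and 840 ± 14.4 in NK barcodes (log2 fold -1.65). S1pr5, a sphingosine receptor for exit into blood, averaged 33.1 ± 6.33 against 123 ± 6.17 CPM (log2 fold -1.88). Cma1, a mast cell type protease, had the lowest log2 fold of the list at -3.03. Klrg1, Cx3cr1, Irf8 and Itga2 also fell, with log2 folds from -1.14 to -1.76. Klrc1, which encodes the inhibitory receptor NKG2A, was the 1 gene that rose, from 206 ± 32.8 to 526 ± 28.3 CPM. Klrk1 (NKG2D), at 1197 ± 48.0 against 1126 ± 71.7 CPM, Klrc2 and Ly6c2 did not pass the test.

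**Figure D2:**
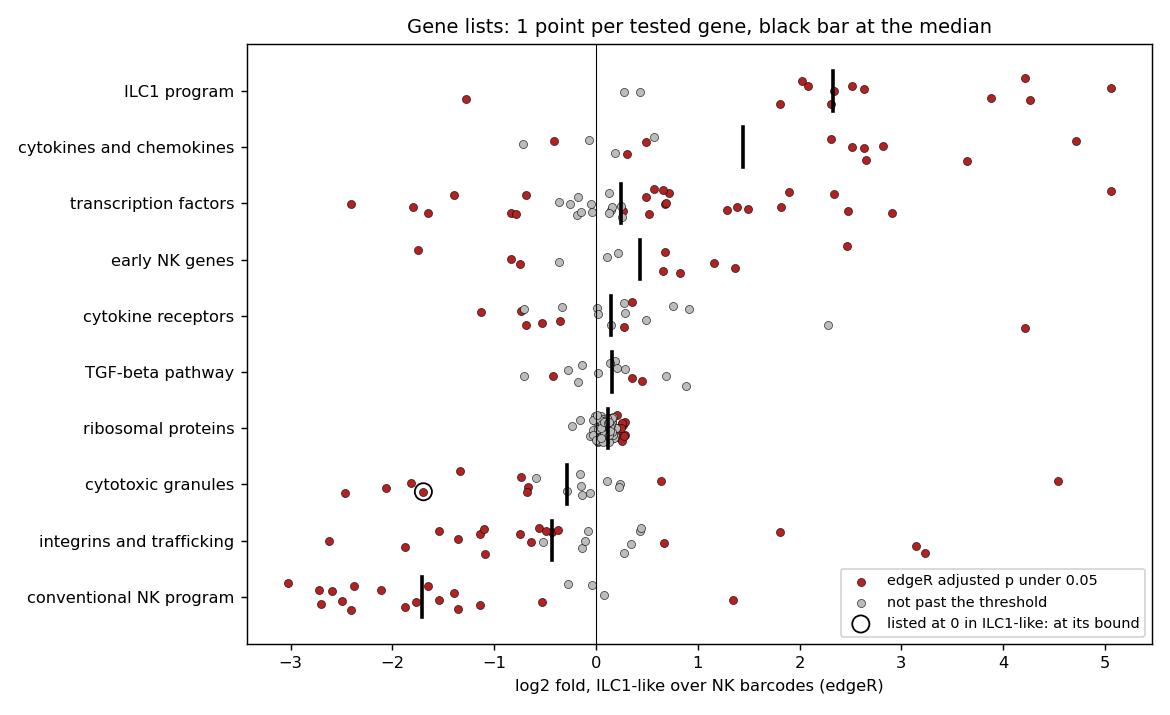
Log2 fold of ILC1-like over NK barcodes (x axis, edgeR) for each tested gene of 10 lists (y axis), in red where the adjusted p is under 0.05 and with a black bar at the list median. The ILC1 program has its median at 2.33 and the conventional NK program at -1.71, and Gzmk, with no UMI in ILC1-like barcodes, is drawn at its bound.

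The cytotoxic granule genes divided. Of 19 listed genes, 8 fell, 2 rose and 9 did not pass the test, with a median log2 fold of -0.28. The background was 5.11% lower and 5.35% higher. Over the 17 alternative settings, 6 to 10 of the listed genes fell and 2 to 3 rose. Gzma, a tryptase granzyme, stood at 1588, 2021 and 1275 CPM in members and at 8938, 9389 and 8130 CPM in NK barcodes (log2 fold -2.47, edgeR adjusted p = 1.24e-14). The thinned share with a Gzma UMI was 57.2% in members, 96.3% in NK barcodes and 36.4% in B cell barcodes, which do not make it, and the unthinned shares were 75.2%, 97.7% and 57.8%. The background in B cell barcodes averaged 174 CPM, below every member tag. Prf1, the pore-forming perforin, averaged 230 ± 46.5 against 793 ± 56.5 CPM (log2 fold -1.81). Nkg7, a granule protein needed for degranulation, fell by 0.73 on the log2 scale. The granzyme gene Gzmm was also called lower. It missed the threshold without tag 2 (edgeR adjusted p = 0.14), after thinning (0.64) and with DESeq2 (adjusted p = 0.11). Srgn, the granule proteoglycan serglycin, rose from 712 ± 39.2 to 1118 ± 36.7 CPM.

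A pair of granzymes from 1 cluster on chromosome 14 moved in opposite directions. Gzmb (chr14:56258838-56262260, minus strand, GRCm38) stood at 67.1, 104 and 53.5 CPM in members and at 314, 311 and 303 CPM in NK barcodes (log2 fold -2.07, edgeR adjusted p = 1.83e-09). Gzmc (chr14:56231441-56234656, minus strand) stood at 29.4, 34.2 and 23.5 CPM in members and at 1.19, 0.582 and 2.18 CPM in NK barcodes (log2 fold 4.54 ± 0.52 SE, edgeR adjusted p = 2.95e-06). Neither gene's groups overlapped. The 54 Gzmc UMIs of members came from 14 of the 318 barcodes, with up to 9 in a single barcode. Gzmc has near-identical neighbours in this cluster, and reads could be divided among them. Gzmk, another granzyme, had 0 UMIs in members and averaged 4.86 ± 2.34 CPM in NK barcodes. A floor of 3 counts over the members makes that at least 3.24-fold lower, a call that was lost without tag 2 (edgeR adjusted p = 0.17) and without tag 3 (0.058).

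The 250 bases before each RefSeq start (GRCm38.p6, minus strand; Gzmb at chr14:56262335-56262584, Gzmc at chr14:56234658-56234907) are set beside each other because these neighbours differed in direction. Capitals mark the Runx letters TGTGGT, the AP-1 letters TGACTCA and the nuclear receptor half-site letters AGGTCA, on either strand.
Gzmb: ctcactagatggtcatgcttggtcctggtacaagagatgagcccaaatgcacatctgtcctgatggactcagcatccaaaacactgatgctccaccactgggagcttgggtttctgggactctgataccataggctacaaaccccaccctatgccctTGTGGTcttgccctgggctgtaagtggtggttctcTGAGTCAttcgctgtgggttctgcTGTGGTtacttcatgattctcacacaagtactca
Gzmc: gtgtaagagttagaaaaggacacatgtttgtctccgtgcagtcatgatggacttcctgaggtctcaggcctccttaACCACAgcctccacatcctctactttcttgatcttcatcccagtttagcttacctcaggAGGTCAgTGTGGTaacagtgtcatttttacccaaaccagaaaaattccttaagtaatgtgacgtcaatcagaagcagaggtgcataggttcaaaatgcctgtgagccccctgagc
Gzmb held Runx letters at -93 and -34 and AP-1 letters at -58. Gzmc held Runx letters at -174 and -108 and the half-site letters at -115. The T-box letters were in neither window. Over all promoters, 4.46% held the AP-1 letters and 14.0% the half-site letters. The matches share no bases with one another.

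Most tested cytokine and chemokine genes were higher in members when all 3 tags were used. Over all tested genes, 5.35% were higher and 5.11% lower. Of 14 tested among 19 listed, 9 rose, 1 fell and 4 did not pass the test, with a median log2 fold of 1.44, while Il10, Il22, Il13, Il5 and Areg were too low to test. Without tag 1, 5 of 13 tested rose, with a median of 0.87, and without tag 3, 7 of 13 rose and 0 fell, with a median of 0.59. Tnf, the inflammatory cytokine, stood at 73.4, 51.3 and 60.0 CPM in members and at 7.97, 7.31 and 10.5 CPM in NK barcodes, without overlap (log2 fold 2.82, edgeR adjusted p = 5.88e-08). Il2, the T cell growth factor, rested on 21 UMIs in members and 63 in NK barcodes (log2 fold 2.66). Lta, lymphotoxin alpha, rested on 14 and 21 UMIs, and Tnfsf11, the RANK ligand, on 10 and 7. The call of Il2 was lost without tag 1 (edgeR adjusted p = 0.081) and without tag 3 (0.073), and that of Lta without tag 2 (0.17). Ccl5, an attractant of T cells and monocytes, fell from 11734 ± 210 to 8863 ± 671 CPM, and missed the threshold without tag 3 (edgeR adjusted p = 0.056).

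The interferon gamma gene did not hold its call in every setting. Ifng stood at 226, 124 and 126 CPM in members and at 123, 99.9 and 105 CPM in NK barcodes (log2 fold 0.49, edgeR adjusted p = 0.0138). Tag 1 was the highest, and without it the log2 fold was 0.28 with an edgeR adjusted p of 0.25. Ccl4, a macrophage attractant, had overlapping groups, a log2 fold of 0.30 and an edgeR adjusted p of 0.0331, which became 0.39 without tag 1 and 0.087 without tag 2. With no tag block the adjusted p of both genes missed the threshold, at 0.16 for Ifng and 0.26 for Ccl4. Ccl3, at 253 ± 58.9 against 260 ± 49.9 CPM, did not pass the test.

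Against a background of 5.35% higher and 5.11% lower, 3 of 19 tested cytokine receptor genes rose and 5 fell. The other 11 did not pass the test, and the list's median log2 fold was 0.14. Il2ra had the highest log2 fold of those that rose, and Il2rg and Tgfbr2 had log2 folds of 0.27 and 0.36. Both of the latter calls were lost when any 1 tag was left out (edgeR adjusted p from 0.092 to 0.35 for Il2rg and from 0.11 to 0.31 for Tgfbr2), without the tag block and with DESeq2. Il18rap, Il12rb2, Il10ra, Il10rb and Ifngr1 fell, with log2 folds from -0.35 to -1.13. Of these, Ifngr1 missed the threshold without tag 3 (edgeR adjusted p = 0.33) and without the tag block (0.13), and Il12rb2 without the tag block (0.14). Il2rb, the shared IL-2 and IL-15 receptor chain, at 803 ± 44.0 against 723 ± 34.4 CPM, did not pass the test. Il18r1, at 540 ± 20.9 against 534 ± 21.5 CPM, did not pass it either. Of 14 tested TGF-beta pathway genes, Tgfbr2 and Smad7 were called higher and Smad4 lower, and none of these 3 calls held in every setting. Calls this few, beside a background of 5.35% higher and 5.11% lower, are not read as a result about the list. Smad7 missed the threshold without tag 1 (edgeR adjusted p = 0.105), without tag 3 (0.17) and without the tag block (0.47), and was at its edge with DESeq2 (0.0501). Smad4 missed it without tag 2 (edgeR adjusted p = 0.27), without tag 3 (0.16) and with DESeq2 (0.27).

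Transcription factor genes showed the widest mix. Of 37 tested among 39 listed, 17 rose, 7 fell and 13 did not pass the test, with a median log2 fold of 0.25. The background was 5.35% higher and 5.11% lower. Several of these calls were lost in other settings. Id2 missed the threshold without tag 2 (edgeR adjusted p = 0.26) and without tag 3 (0.47), and Nr4a1 without tag 1 (0.21) and tag 2 (0.16). Id3 missed it without tag 3 (0.16), Nr4a3 without tag 1 (0.092) and Junb without the tag block (0.51). Among those that fell, Myb missed it without tag 3 (0.40) and Nr4a2 without the tag block (0.15). Ikzf2, which encodes Helios, stood at 386, 286 and 284 CPM in members and at 40.4, 40.1 and 44.6 CPM in NK barcodes (log2 fold 2.91, edgeR adjusted p = 3.42e-13). Ahr, the aryl hydrocarbon receptor of tissue lymphocytes, averaged 86.5 ± 19.8 against 15.2 ± 1.02 CPM (log2 fold 2.48). The member tags lay above the NK tags for both. Maf, Zbtb16 (the innate lineage factor PLZF), Batf and Gata3 had log2 folds of 1.49, 1.39, 1.29 and 0.71. Bcl11b, a T cell and ILC2 factor, had a log2 fold of 1.90, which was 1.21 without tag 3 (edgeR adjusted p = 0.067). Prdm1, which encodes Blimp-1, fell from 64.4 ± 12.6 to 19.0 ± 5.78 CPM, and Klf2 and Irf8 fell by 0.68 and 1.39 on the log2 scale. Runx1, Runx2 and Runx3 had log2 folds from -0.05 to 0.14 and did not pass the test.

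Genes of cell position also changed. Of 25 tested integrin and trafficking genes, 13 fell, 4 rose and 8 did not pass the test, with a median log2 fold of -0.43. The background was 5.11% lower and 5.35% higher. Itgb3, an integrin beta chain, averaged 57.7 ± 24.3 CPM in members and 6.22 ± 1.60 in NK barcodes (log2 fold 3.15). Gpr183, an oxysterol receptor that positions cells in lymphoid organs, averaged 182 ± 67.9 against 18.7 ± 3.71 CPM (log2 fold 3.23). Both were higher in members in every tag. Itgam, the maturation integrin CD11b, fell from 209 ± 2.87 to 35.1 ± 7.97 CPM. S1pr1, at 42.8 ± 7.07 against 46.4 ± 0.698 CPM, did not pass the test.

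Some T cell receptor locus genes were high although the T cell gate genes were absent by rule. Tcrg-C4, a gamma chain constant gene, stood at 195, 190 and 149 CPM in members and at 6.19, 6.99 and 7.10 CPM in NK barcodes (log2 fold 4.69, edgeR adjusted p = 7.61e-14). Trbc2, a beta chain constant gene, averaged 479 ± 29.9 against 204 ± 13.9 CPM, and 1189 ± 70.6 CPM in 74 T cell barcodes (Trac with Cd3d or Cd3g, and Klrb1c and Ncr1 at 0). Trdc, the delta constant gene, fell from 60.3 ± 1.40 to 19.2 ± 5.39 CPM. Members were thus higher than NK barcodes for Tcrg-C4 and Trbc2 and lower for Trdc, which does not describe the other genes of these loci. Cd3e, a T cell signalling chain that the rule did not use, was found in 0 of 318 members, which allows a share of up to 0.943%, and its share in T cell barcodes was 89.2%, or 67.6% after thinning. Of the 12 T cell markers, 6 were tested, of which 3 rose and 1 fell, with a median log2 fold of 0.05. Their summed level was 1052 to 1128 CPM in members and 729 to 772 CPM in NK barcodes, and Cd3e, Cd8a, Cd8b1 and Cd6 were at 0 in members.

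Genes of other innate lymphoid cells were rare in members. Of genes of group 3 cells, Il23r was found in 5 of 318 members and Il22 in 1. For group 2 cells, Il1rl1 was found in 5, Il17rb in 4, and Il5 and Il13 in 0, while Arg1, a gene of group 2 cells, was found in 19. The sum of the 8 group 3 markers, which include Ahr and Kit, was 201 to 258 CPM in members and 49.5 to 67.9 CPM in NK barcodes. The sum of the 8 group 2 markers, most of it Gata3 and Bcl11b, was 159 to 186 CPM against 74.9 to 81.4 CPM. A sum of 4 stromal collagen and matrix genes was 4.19 and 1.30 CPM in tags 1 and 3 of members and 507 CPM in tag 2. The part of these markers in the results was not tested.

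By the naming rule, 12 genes represented the highest folds. Fam184b stood at 58.7, 76.2 and 57.4 CPM in members and at 0.848, 0.905 and 1.09 CPM in NK barcodes (log2 fold 6.05 ± 0.40 SE, edgeR adjusted p = 1.06e-09). It was detected in 61 of 318 members and 33 of 7716 NK barcodes. Tnfrsf25, the receptor DR3 for the cytokine TL1A, averaged 32.1 ± 2.48 against 0.619 ± 0.342 CPM. Its neighbour Espn, an actin bundling protein gene on the other strand (chr4:152120331-152152371; Tnfrsf25 at chr4:152115934-152120119), averaged 19.8 ± 6.89 against 0.575 ± 0.252 CPM, and the ends of these genes face each other. Togaram2, a microtubule-binding protein gene, had 34 UMIs in members and 2 in NK barcodes, a ratio of 345 with an exact counting interval of 88.3 to 2961. Tcrg-V1, Trat1 (a T cell receptor adaptor), Adam12 (a metalloprotease), Cntn1 (a neural adhesion protein), Ccdc184, Podnl1, Tcrg-C4 and Gzmc completed the set, and the 11 genes other than Togaram2 were 20.3-fold to 66.1-fold higher. Ccdc184 and Cntn1 varied most between tags, with 5.22 to 31.1 and 4.19 to 32.7 CPM in members.

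At the other end, 10 of the 12 named lower genes had no UMI in members. Plbd1, a phospholipase-like gene of myeloid cells, was at least 10.5-fold lower, and Alox5ap, which serves leukotriene synthesis, at least 7.84-fold lower, each against a floor of 3 counts over the members. Pax5, a B cell factor, and H2-DMb2, of peptide loading, were at least 3.96-fold and 3.27-fold lower. Cd86, a costimulatory ligand, and Mzb1, a plasma cell gene, had 1 UMI each in members, with NK over member ratios of 22.0 (exact counting interval 3.92 to 869) and 18.1 (3.23 to 717). These 6 genes are typical of B, plasma, dendritic or other myeloid cells, and the exclusion genes applied to members and not to NK barcodes. In the 6279 NK barcodes without an exclusion gene, Plbd1, Alox5ap, Pax5, H2-DMb2 and Mzb1 were too low to test, and Cd86 missed the threshold (edgeR adjusted p = 0.12). Against all NK barcodes without tag 3, Pax5, H2-DMb2 and Mzb1 missed it too (edgeR adjusted p of 0.098, 0.13 and 0.43).

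The antigen-presentation genes turned direction with that change of class. Cd74 had a log2 fold of -1.90 against all NK barcodes and of 1.21 against NK barcodes without an exclusion gene, H2-Ab1 of -2.09 and 0.89, and H2-Eb1 of -1.91 and 1.35. The other named lower genes were Dpysl5 (at least 3.96-fold lower), Khdc1c (3.49-fold), Gzmk, Inppl1 (2.68-fold), Col23a1 (2.63-fold) and Ret (2.35-fold). Dpysl5 encodes a collapsin response mediator protein, Inppl1 a lipid phosphatase, Col23a1 a transmembrane collagen and Ret a receptor kinase. The calls of Khdc1c, Inppl1, Col23a1 and Ret were lost when any 1 tag was left out (edgeR adjusted p from 0.052 for Khdc1c to 0.17 for Ret) and with DESeq2. The call of Gzmk was lost without tag 2 (edgeR adjusted p = 0.17), without tag 3 (0.058) and with DESeq2 (0.10), and Dpysl5 kept its call in each of these settings.

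Early NK cells share some genes with ILC1, so members were next compared with 1194 NK barcodes that held Cd27 and no Itgam UMI. Of 9094 tested genes, 665 (7.31%) differed, with 360 higher in members (3.96%) and 305 lower (3.35%). DESeq2 called 188 and 149. Of the ILC1 list, 10 of 13 tested genes rose and 1 fell, with a median log2 fold of 1.39 beside 0.00 over all genes. Of the conventional NK list, 14 of 20 fell and 2 rose, with a median of -0.96. These comparisons and the first share the member barcodes, and the Cd27-positive barcodes are a subset of the NK barcodes.

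Named genes differed from these early NK barcodes as follows. Inpp4b stood at 34.8, 28.0 and 36.5 CPM in Cd27-positive barcodes, each below the member tags (log2 fold 3.51, edgeR adjusted p = 2.76e-10). Cd226, the activating receptor DNAM-1, stood at 627, 661 and 695 CPM in members and 110, 135 and 164 CPM in Cd27-positive barcodes (log2 fold 2.26). Eomes had a log2 fold of -2.42, Rora of 2.37, Xcl1 of 1.39, Klra8 of -2.49 and Gzma of -1.60. Tbx21, at 260 ± 17.4 against 177 ± 20.4 CPM, passed the threshold here with a log2 fold of 0.51 (edgeR adjusted p = 0.0095), and missed it with DESeq2 (adjusted p = 0.056). The named higher genes were Fam184b, Tnfrsf25, Espn, Adam12, Gzmc and Ckb (a creatine kinase, 118 ± 15.3 against 4.81 ± 1.61 CPM). Of the named lower genes, Dpysl5 was at least 5.92-fold lower, and Klra5, Kcnc1 (a potassium channel), Col19a1 and Ptprk (a receptor phosphatase) had 1 to 4 UMIs in members. The sixth, Iglc2, an immunoglobulin gene, reached 746 CPM in tag 3 of the Cd27-positive barcodes and had overlapping groups, and its call was lost without the tag block (edgeR adjusted p = 0.15). Kcnc1 missed the threshold with DESeq2 (adjusted p = 0.091).

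Of 12 early NK genes, 6 rose and 3 fell against all NK barcodes, with a median log2 fold of 0.44. Cd27 was left out of the test against Cd27-positive barcodes, and of the other 11 genes 3 rose and 3 fell there, with a median of -0.04. The backgrounds were 5.35% higher and 5.11% lower against all NK barcodes, and 3.96% and 3.35% against Cd27-positive ones. Tcf7, a factor of precursor lymphocytes, averaged 163 ± 26.9 CPM in members, 164 ± 9.09 in Cd27-positive and 101 ± 8.68 in all NK barcodes. Its log2 fold was 0.68 against all NK barcodes (edgeR adjusted p = 0.000195) and -0.04 against Cd27-positive ones (edgeR adjusted p = 0.933). The first missed the threshold with NK barcodes matched in depth (edgeR adjusted p = 0.075). Emb, an adhesion protein gene, had log2 folds of 1.16 and 0.35 in these comparisons, and both passed the threshold. The call against Cd27-positive barcodes was lost without tag 3 (edgeR adjusted p = 0.092) and without the tag block (0.59). Slamf6, a receptor of precursor-type lymphocytes, averaged 7.83 ± 2.64 CPM in members against 24.6 ± 3.87 in all NK barcodes and fell by 1.75 on the log2 scale.

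The rule of the closest comparison class differed from that of the members only in the 4 ILC1 genes. This class held 386 barcodes with an NK receptor gene, Il7r and no exclusion gene, and none of the 4 genes. Its median depth was 4673 UMIs against 5219.5 in members, and the part of depth in this comparison was not tested. Of 7255 tested genes, 401 (5.53%) differed, 200 higher in members (2.76%) and 201 lower (2.77%). Without tag 3 the counts were 90 and 91, without tag 1 131 and 134, without the tag block 113 and 114, and with DESeq2 59 and 51. Of the ILC1 list, 10 of 13 tested genes rose and 1 fell, with a median log2 fold of 1.28. Of the conventional NK list, 15 of 20 fell and 1, Klrc1, rose, with a median of -1.08. The 5 alternative settings here left out each tag or the tag block, or used DESeq2. Over them, 8 to 11 genes of the ILC1 list rose and 11 to 14 of the conventional NK list fell. Both lists had their fewest calls with DESeq2. Klrg1, called lower in the main fit, lost its call in each of the 5 settings. The call of Klrc1 was lost without tag 1 (edgeR adjusted p = 0.26), without tag 3 (0.083), without the tag block and with DESeq2.

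Levels in the Il7r-positive barcodes without the 4 genes often lay between members and NK barcodes. Xcl1 stood at 663, 606 and 730 CPM there, Ltb at 328, 361 and 386 CPM and Cd226 at 207, 295 and 324 CPM. Each of these lay below every member tag and above every NK tag. The log2 folds of members over this class were 1.48 for Xcl1, 0.95 for Ltb, 1.28 for Cd226 and 1.58 for Ikzf2. Eomes stood at 331, 270 and 182 CPM and overlapped the NK barcodes, and members lay below it in each tag (log2 fold -2.01, edgeR adjusted p = 6.12e-09). Tbx21 missed the threshold in this comparison (log2 fold 0.43, edgeR adjusted p = 0.0653).

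The named higher genes of this comparison were Gzmc, Il2ra, Fam184b, Ckb, Sema6d (a semaphorin) and Cd200r2. Il2ra averaged 33.4 ± 4.68 CPM in members and 2.63 ± 2.47 CPM in the Il7r-positive barcodes without the 4 genes. Sema6d averaged 34.7 ± 5.32 against 3.94 ± 3.71 CPM. The named lower genes were Klra1, Klra8, Eomes, Slamf6, Phactr3 (an actin and phosphatase regulator) and Ifngas1, a noncoding gene beside Ifng. They fell by 1.92 to 2.13 on the log2 scale. Without tag 3 the threshold was missed by Slamf6 (edgeR adjusted p = 0.17), Ifngas1 (0.11) and Cd200r2 (0.10). With DESeq2 it was missed by Slamf6 (adjusted p = 0.31) and Ifngas1 (0.21). Tcf7, Emb and Kit, with log2 folds of -0.13, 0.13 and -0.07, did not pass the test.

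**Figure D3:**
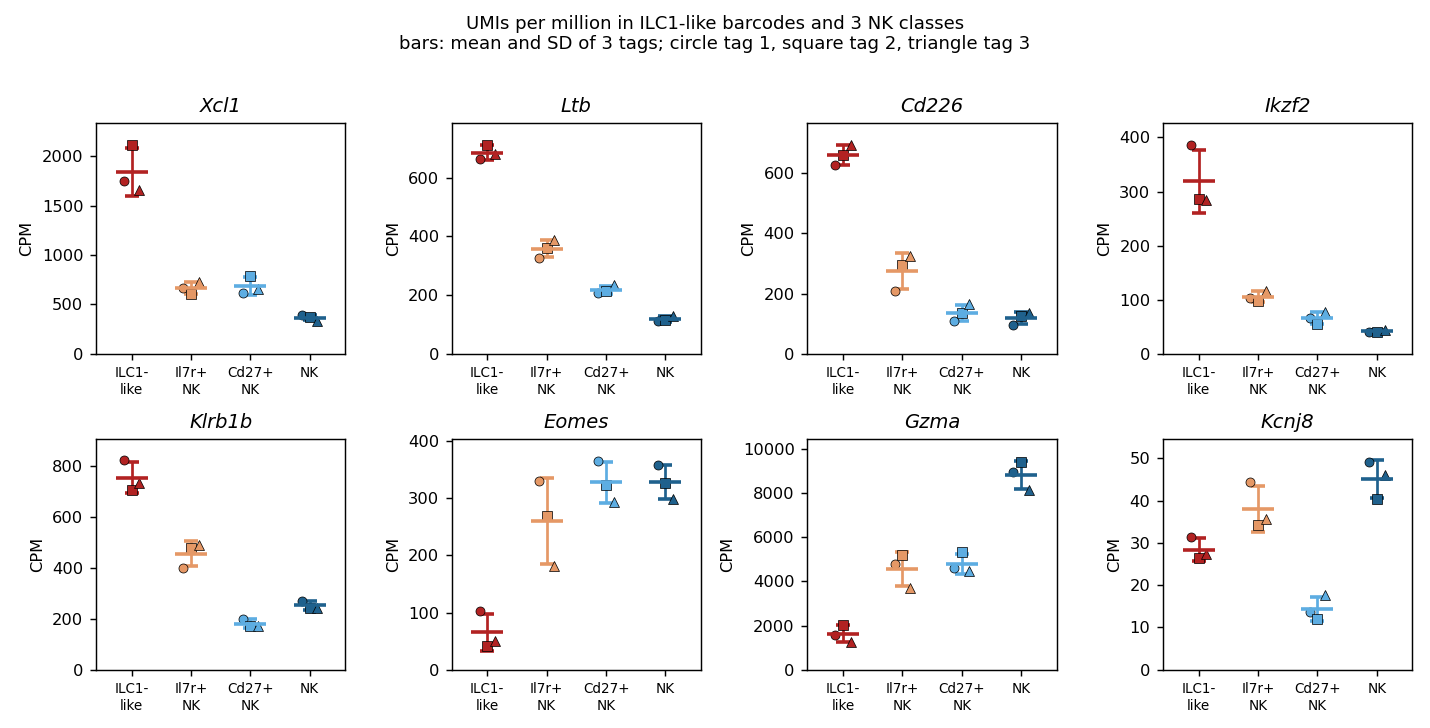
CPM (linear axis from 0) of 8 genes in ILC1-like barcodes, Il7r-positive barcodes without the 4 ILC1 genes (Il7r+ NK), Cd27-positive NK barcodes and NK barcodes, with 1 point per tag and the mean and SD of 3 tags. Xcl1, Ltb, Cd226, Ikzf2 and Klrb1b are highest in ILC1-like barcodes in every tag, Eomes and Gzma are lowest there, and Kcnj8 is lowest in Cd27-positive barcodes.

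Klrb1b, a gene of the same receptor family as Klrb1c, differed in all 3 comparisons. It averaged 755 ± 61.0 CPM in members, 456 ± 49.6 in Il7r-positive barcodes without the 4 genes, 253 ± 16.2 in NK and 181 ± 17.1 in Cd27-positive barcodes. Its log2 fold was 1.57 over NK barcodes, 2.04 over Cd27-positive ones and 0.74 over the Il7r-positive ones, each past the threshold with edgeR.

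Kcnj8 encodes Kir6.1, the pore of an ATP-sensitive potassium channel and the gene at the centre of the series. It stood at 31.5, 26.5 and 27.4 CPM in members and at 49.1, 40.3 and 46.1 CPM in NK barcodes. The member values were lower in each tag (log2 fold -0.68 ± 0.19 SE, edgeR adjusted p = 0.024). The call was lost when any 1 tag was left out (edgeR adjusted p from 0.065 to 0.15) and with DESeq2 (adjusted p = 0.24), and the log2 fold was 0.28 against NK barcodes matched in depth. Against Cd27-positive barcodes, at 13.5, 11.9 and 17.6 CPM, members were higher (log2 fold 0.95, edgeR adjusted p = 0.048). That call was also lost without any 1 tag and with DESeq2 (adjusted p = 0.60). Against the Il7r-positive barcodes without the 4 genes, at 38.1 ± 5.45 CPM, the log2 fold of -0.39 did not pass the test (edgeR adjusted p = 0.55).

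The members were not uniform. An Eomes UMI was found in 62 of 318 (19.5%), and those members held a median of 7308 UMIs against 4987 in the 256 without one. This division rests on a measured value, so the following levels are a description. Klra8 stood at 560, 522 and 726 CPM in members with an Eomes UMI and at 83.1, 109 and 71.5 CPM in those without. Gzma averaged 2929 ± 573 against 1188 ± 484 CPM, and Zeb2 461 ± 162 against 190 ± 49.0 CPM. These 3 genes were higher beside Eomes in each tag.

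Other genes were lower on average in the members with an Eomes UMI. Xcl1 averaged 991 ± 105 CPM with and 2172 ± 330 CPM without an Eomes UMI, and Rora 229 ± 32.3 against 396 ± 130 CPM. Fam184b stood at 10.0, 29.0 and 26.4 CPM with and at 93.9, 89.1 and 65.0 CPM without, and Tcrg-C4 averaged 68.7 ± 19.4 against 224 ± 52.3 CPM. Tbx21, at 281 ± 60.8 and 262 ± 46.0 CPM, overlapped between them. The deeper libraries of the Eomes-positive members move with this division, and their part in it was not tested. With the 256 members without Eomes UMIs in place of all 318, 697 genes were higher and 848 lower than in NK barcodes.

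**Figure D4:**
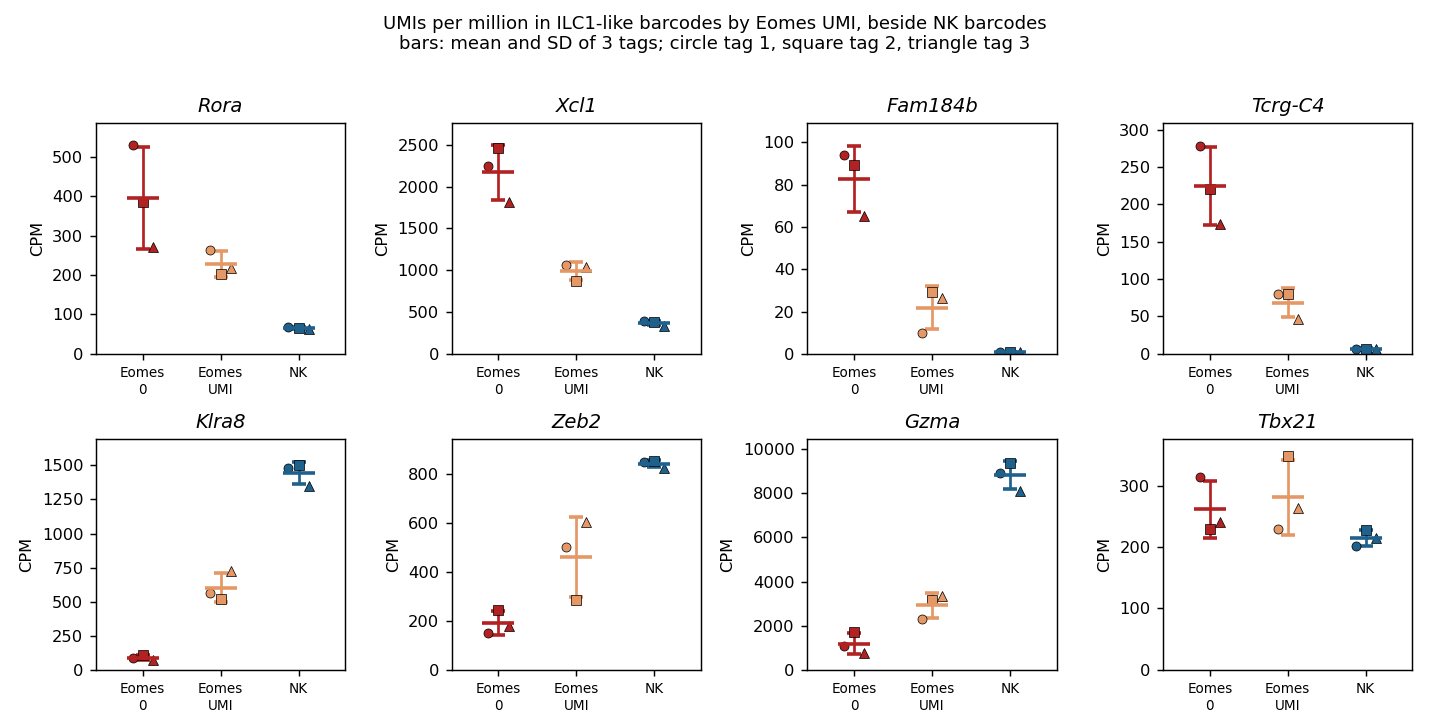
CPM (linear axis from 0) of 8 genes in ILC1-like barcodes without an Eomes UMI, ILC1-like barcodes with one, and NK barcodes, with 1 point per tag and the mean and SD of 3 tags. By their means, Klra8, Zeb2 and Gzma in the Eomes-positive members lie between the other members and NK barcodes, as do Rora, Xcl1, Fam184b and Tcrg-C4, and Tbx21 overlaps between the member groups.

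Members with more of the 4 ILC1 genes also differed in level. Zeb2 averaged 392 ± 22.2 CPM in the 135 members with 1 of the 4 genes, 253 ± 59.5 in the 113 with 2 and 106 ± 36.8 in the 70 with 3 or 4. Ahr averaged 62.9 ± 8.15, 85.6 ± 49.4 and 123 ± 42.8 CPM in the same order. The Zeb2 values of the first and last of these did not overlap between tags, while Ahr in members with 2 of the genes ranged from 32.2 to 130 CPM. Median depth was 4754, 5449 and 6199 UMIs in that order, so depth moved with the number of genes detected, and its part was not tested.

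Members with Cxcr6 or Itga1 (174) were tested against members with neither (144), whose Tmem176a or Tmem176b UMIs alone met the rule. Of 4931 genes, 0 (0%) passed the threshold by edgeR and 0 by DESeq2, and 306 had an unadjusted edgeR p under 0.05. Without tag 2, 4 genes were higher and 3 lower, and without tag 1, 2 were lower. Rora averaged 341 and 346 CPM in these subsets, Xcl1 1834 and 1816 CPM, Eomes 72.0 and 59.4 CPM and Tbx21 257 and 260 CPM. Ahr averaged 112 against 57.2 CPM. A missed threshold at this depth does not show that the subsets are alike.

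Housekeeping measures gave a scale for these differences. Of 80 tested ribosomal protein genes, 11 rose and 0 fell against NK barcodes, with a median log2 fold of 0.12. Against Cd27-positive barcodes 0 rose and 9 fell, with a median of -0.15. Of 13 mitochondrially encoded genes, 0 passed the threshold against NK barcodes, with a median of 0.01. Against Cd27-positive barcodes 1 of the 13 fell, with a median of -0.17. Of 20 cell cycle genes, 1 fell against NK barcodes (H2afz, a histone variant gene, log2 fold -0.74) and none rose, with a median of 0.21. The background against NK barcodes was 5.35% higher and 5.11% lower. The mitochondrial share of UMIs had a median of 1.48% in members and 1.33% in NK barcodes.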

How the data were processed

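Droplet 3′ RNA libraries of splenic cells enriched for NK cells were analysed. Values are UMI counts per gene and barcode as deposited by the authors, and per the file headers Cell Ranger 7.0.0 wrote them. Cell Ranger, Seurat and mm10 are named per the submitters' processing notes. How annotation, introns and strand were treated is not given in the sources used here.

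Kept were 15742 of 16384 barcodes, with 500 to 6000 genes and no more than 10% of UMIs from mitochondrial genes, and those over exactly 1 tag cutoff were analysed (11692). The cutoffs were 140, 196 and 138 counts for tags 1, 2 and 3. This removed 3540 barcodes with several tags and 510 with none. About 1781 doublets of 1 tag, 15.2% of the analysed barcodes, are expected to remain. No other doublet caller was run. Of 471 barcodes that met the member rule in any tag state, 26.8% carried several tags, against 22.5% of all barcodes.

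Counts were summed per tag and class, giving 476826 to 766945 UMIs per tag for members. They were tested with edgeR 4.0.16 (quasi-likelihood test, TMM scaling, filterByExpr, tag as a block, Benjamini-Hochberg adjustment over all tested genes), with DESeq2 1.42.0 as an alternative. The 13 genes of the selection rules were left out of the tests. edgeR shares information on spread between genes, so a small p does not rest on 3 tags of a gene alone. The tag pairs the classes, since both hold cells of the same tag: deviations of same-tag sums correlated at 0.414, 0.303 and 0.243 over 3552 genes at 50 CPM or more. For shares of barcodes, each was thinned to 2500 UMIs. Intervals cover counting error only. The fits were tested on simulated data.

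Members, lists and tests were chosen with earlier results of these data known. Named genes have an adjusted p under 0.05, the same direction in 3 of 3 tags and at least 30 UMIs in the higher class. The 12 largest folds in each direction were taken for the main comparison and the 6 largest for the others. Other genes are named from the lists. Positions are from GENCODE on GRCm38 (32235 of 32285 gene IDs matched) and promoters from RefSeq on GRCm38.p6.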

Additional observations from a re-analysis of the deposited data

How the results depend on the processing

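Of 3054 single-gene values under alternatives, 2672 kept direction and side of the threshold, 366 lost the call and 16 reversed. The alternatives left out each tag, the tag block, the filter or the deepest 10% of barcodes, changed the tool, scaling or class rules, or thinned or matched depth. The share of members ranged from 2.29% to 2.96% with a tag left out and was 1.49% with Cxcr6 or Itga1 required. Leaving out 1 tag gave 402 to 514 genes higher and 363 to 476 lower than in NK barcodes, 272 to 402 and 218 to 403 against Cd27-positive barcodes, 90 to 203 and 91 to 161 against Il7r-positive barcodes without the 4 genes, and 0 to 4 and 0 to 3 within members. DESeq2 called 305 lower than in NK barcodes, 188 and 149 against Cd27-positive, and 59 and 51 against the Il7r-positive class. Depth matching gave 367 and 338. Without the replicate block, which pairs classes by tag, the Il7r-positive counts were 113 and 114, and no other count over all tested genes moved by over 1.5 times. In that comparison, 7 of 9 tested cytokine genes were higher, and 4 without tag 1, without tag 3, without the block or with DESeq2. Of the granule genes there, 5 were lower, against 3 without the block and 2 with DESeq2. Reversed log2 folds, against NK barcodes, were as follows. With exclusion genes at 0 in both classes they were Cst3 0.38, Jchain 0.063, Ly6d 0.43, H2-Ab1 0.89, H2-Eb1 1.35 and Cd74 1.21. With thinned gates they were Car1 0.22, H2-Eb1 0.32 and Cd74 0.067. Without barcodes holding UMIs of other types they were Jchain 1.29, H2-Eb1 0.42 and Cd74 0.49. Without the deepest barcodes they were Cst3 0.28 and Apoe 0.20. Depth matching gave Kcnj8 0.28, and requiring Cxcr6 or Itga1 gave Nr4a1 -0.0706. The cause was not tested. The set of members without Eomes UMIs was added after seeing the data. With 318 members, genes under 1.59 CPM lie below a floor of 3 counts.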
